A study of Mus musculus with 10 samples.

Results

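The troponin and tropomyosin genes are the 9 genes *Tnnt2*, *Tnni3*, *Tnnc1*, *Tnnt1*, *Tnni1*, *Tpm1*, *Tpm2*, *Tpm3* and *Tpm4*, chosen by name out of 57185 mouse genes with a value, zeros included, in the table of counts. They encode the calcium switch of the thin filament of striated muscle and the tropomyosins that go with it. RNA was sequenced from the apical part of the left ventricle of 10 mice aged 16 weeks, 5 in each of 2 genotypes. MLPKO mice are named as knocked out for *Csrp3*, the gene for muscle LIM protein, a background in which dilated cardiomyopathy develops, and carried floxed *Rrad* alleles without a Cre transgene. The second group, named MLPKO-cRADKO in the labels and cRADΔ/Δ-MLPKO here, shared both of these and also carried MerCreMer, a tamoxifen-inducible recombinase driven by the *Myh6* promoter, which removes *Rrad* in cardiomyocytes. RAD, its product, restrains the L-type calcium channel. Every mouse received 1 tamoxifen dose of 100 mg/kg at 10 weeks of age, and the hearts are given as 1 month after it. An age of 16 weeks is more than 1 month after a dose at 10 weeks, a mismatch left here as found. Tamoxifen was common to both groups, whereas the Cre transgene and the *Rrad* deletion came together and cannot be told apart. The strain was not given in the sources used here.

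In the cardiac sarcomere, troponin C binds calcium, troponin I holds the filament off in its absence, and troponin T ties the complex to tropomyosin, which lies along actin and covers or uncovers the sites for myosin. The adult ventricle uses the cardiac forms of troponin T (*Tnnt2*) and troponin I (*Tnni3*) and shares its troponin C (*Tnnc1*) with slow skeletal muscle. *Tnnt1* and *Tnni1* encode the slow skeletal forms, of which *Tnni1* is the fetal cardiac troponin I. *Tpm1* encodes the main sarcomeric tropomyosin of the heart, and *Tpm2* a tropomyosin of skeletal and smooth muscle. *Tpm3* and *Tpm4* encode mostly tropomyosins of the cytoplasmic actin cytoskeleton, and *Tpm3* also encodes one of slow skeletal muscle.

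On GRCm39, the build of the counts, the genes lie on 7 chromosomes in all. *Tnni1* (chr1:135707172-135738727) lies 25010 bases before *Tnnt2* (chr1:135763738-135780315) on the same strand, with *Lad1* in between. *Tnnt1* (chr7:4507567-4519381) and *Tnni3* (chr7:4521300-4527228) form the closer pair, 1918 bases apart on the same strand. The others stand alone, with *Tnnc1* at chr14:30930232-30933708, *Tpm1* at chr9:66929870-66956953, *Tpm2* at chr4:43514697-43524949, *Tpm3* at chr3:89979949-90008226 and *Tpm4* at chr8:72884018-72906987.

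The sequences just before the transcription start are shown for the troponin T genes, which were the members that fell, and for *Tnni3*, which lies next to *Tnnt1* and did not fall with it. They are 250 bases long, from RefSeq on GRCm38.p6, an earlier build than that of the counts, written 5′ to 3′ on the strand of the gene. The first of 2 RefSeq start sites is shown for *Tnnt2*. Capitals mark matches on either strand to 5 motifs. The motif of TEAD factors, called MCAT, was searched as CATTCC. That of GATA factors was searched as AGATAA. The core of the TATA box was searched as TATAAA, and the CArG box of SRF and the MEF2 motif by their usual consensus.
Tnnt2, chr1:135836084-135836333, plus strand: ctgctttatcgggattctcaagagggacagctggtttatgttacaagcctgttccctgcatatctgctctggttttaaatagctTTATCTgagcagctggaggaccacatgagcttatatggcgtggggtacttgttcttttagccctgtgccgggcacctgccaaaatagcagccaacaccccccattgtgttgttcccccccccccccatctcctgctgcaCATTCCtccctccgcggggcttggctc
Tnnt1, chr7:4515976-4516225, minus strand: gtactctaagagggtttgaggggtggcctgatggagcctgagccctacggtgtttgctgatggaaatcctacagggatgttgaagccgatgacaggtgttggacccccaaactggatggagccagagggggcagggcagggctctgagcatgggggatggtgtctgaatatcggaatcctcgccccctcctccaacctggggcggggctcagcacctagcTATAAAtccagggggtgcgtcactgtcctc
Tnni3, chr7:4522529-4522778, minus strand: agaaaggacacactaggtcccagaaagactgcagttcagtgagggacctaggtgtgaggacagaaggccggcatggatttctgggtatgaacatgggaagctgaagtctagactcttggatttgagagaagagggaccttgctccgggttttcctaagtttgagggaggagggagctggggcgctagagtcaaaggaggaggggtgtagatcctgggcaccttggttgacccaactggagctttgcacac
The *Tnnt2* window held an MCAT match starting 27 bases before the start and a GATA match starting 166 bases before it. The *Tnnt1* window held a TATA match starting 30 bases before its start, and the *Tnni3* window held a match to none of these 5 motifs. MCAT matches also stood in the windows of *Tnnc1*, starting 58 bases before the start, and of *Tpm1*, starting 56 bases before it. Of 32851 RefSeq promoter windows of this length, 12.6% held the MCAT letters, 9.99% the GATA letters, 12.4% the TATA letters, 1.47% a CArG box and 1.69% a MEF2 motif. The E-box (CANNTG) was present in each of these 3 windows, 4 times for *Tnnt2* and 1 time each for *Tnnt1* and *Tnni3*, but 66.2% of all windows held it. Among the motifs searched, the E-box was thus the only one found in both troponin T windows, and no member held a CArG box or a MEF2 motif in these windows.

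Sequence shared between members could let a read of one be counted for another, so it was measured on the annotated transcripts. No run of 50 bases was common to *Tnnt2* and *Tnnt1*, and the longest identical run of their coding sequences was 15 bases.
Tnnt2 coding bases 211 to 225 and Tnnt1 coding bases 184 to 198: tttgatgacatccac
Of the 5 pairs whose coding sequences were compared in this way, *Tpm1* and *Tpm2* had the longest identical run, their first 35 bases.
Tpm1 and Tpm2 coding bases 1 to 35: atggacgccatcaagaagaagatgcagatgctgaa
*Tnnt2* had 2 runs of 50 bases in common with *Tnni1*, of 10745 in its transcripts. *Tpm3* shared 15.4% of its 50-base runs with *Tpm3-rs7*, a copy that had 12 to 42 raw counts per mouse against 1743 to 2635 for *Tpm3*. *Tnni3* overlaps *Dnaaf3* on the same strand by 1297 bases, and *Tnnc1* lies within *Nisch* on the opposite strand. Whether the counting used strand was not stated, so reads in these overlaps cannot be assigned with certainty. *Tnnt1* overlaps 1 predicted gene on the opposite strand, and *Tnnt2* overlaps no annotated gene.

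Total counts ran from 33457406 to 49965101 per MLPKO mouse and from 33759811 to 46280882 per cRADΔ/Δ-MLPKO mouse, and the 9 genes took 1.82% to 1.97% of them in MLPKO and 1.44% to 1.78% in cRADΔ/Δ-MLPKO. The counts of the targeted genes are given first as a check of the labels. *Csrp3*, named as knocked out in all 10 mice, was counted in every one, at 1009 to 3261 CPM (counts per 1000000 counts of the library, with library sizes adjusted by TMM) in MLPKO and 691 to 1177 in cRADΔ/Δ-MLPKO, with an edgeR log2 fold change of −1.08 (SE 0.29, adjusted p = 0.0666; DESeq2 adjusted p = 0.0361). *Rrad* had 140 to 282 CPM in MLPKO and 135 to 202 CPM in cRADΔ/Δ-MLPKO, overlapping between genotypes, with a log2 fold change of −0.38 (SE 0.20, edgeR adjusted p = 0.29). Counts cover whole genes and all cells of the tissue and do not show which exons were read, so genotype names below are those of the labels. The defining cardiomyocyte genes were present in every mouse: the 10 markers summed to 89730 to 100559 CPM in MLPKO and 72598 to 89215 CPM in cRADΔ/Δ-MLPKO.

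Per length of transcript, the members fell into a high and a low tier. In MLPKO the mean level in TPM (transcripts per 1000000 transcripts, computed with the length of the canonical transcript) was 8265 ± 642 (SD, n = 5) for *Tnnt2*, 7266 ± 181 for *Tpm1*, 6216 ± 627 for *Tnnc1* and 5979 ± 451 for *Tnni3*. Levels of *Tnnt2* stood above all of *Tpm1*, and those of *Tpm1* above all of *Tnni3*. *Tnnc1* overlapped *Tnni3* and also *Tpm1*, reaching 7065 TPM in MLPKO mouse 2 against 6987 for *Tpm1* in MLPKO mouse 4. In cRADΔ/Δ-MLPKO the means were 6488 ± 465 for *Tnni3*, 6254 ± 718 for *Tpm1*, 5556 ± 400 for *Tnnt2* and 5349 ± 406 for *Tnnc1*, and *Tnnt2* now overlapped *Tpm1*. The low tier began with *Tpm4*, at 84.9 ± 9.72 TPM in MLPKO and 93.3 ± 9.41 in cRADΔ/Δ-MLPKO. *Tpm3* followed at 49.7 ± 4.43 and 55.5 ± 7.33 TPM, below *Tpm4* in every mouse of both groups. *Tpm2* had 46.8 ± 42.4 and 48.4 ± 30.3 TPM and overlapped *Tpm3* in both groups. *Tnnt1* stood at 29.8 ± 4.65 TPM in MLPKO and 15.8 ± 2.92 in cRADΔ/Δ-MLPKO, overlapping *Tpm2* only in MLPKO. *Tnni1* was near zero, with 0, 0, 6, 6 and 14 raw counts in the MLPKO mice and 0, 2, 2, 8 and 9 in the cRADΔ/Δ-MLPKO mice. The order within the high tier depended on the length used: with the union of all annotated exons *Tnnc1* ranked 1 and *Tnnt2* ranked 4 among the members.

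**Figure D1:**
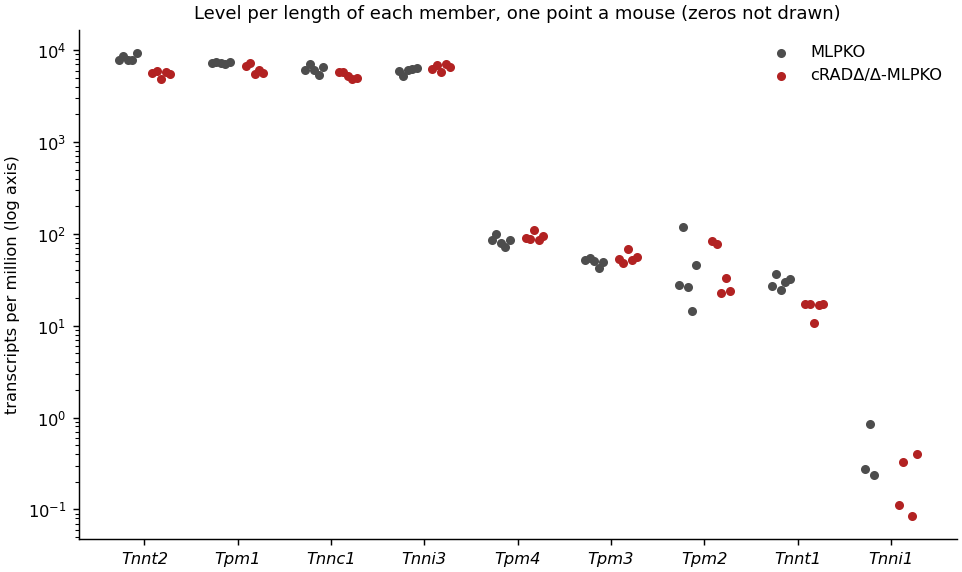
Level of each of the 9 genes in TPM on a log axis, 1 point per mouse, MLPKO in grey and cRADΔ/Δ-MLPKO in red, with zeros not drawn. *Tnnt2*, *Tpm1*, *Tnnc1* and *Tnni3* lie between 4900 and 9233, *Tpm4*, *Tpm3*, *Tpm2* and *Tnnt1* between 10.6 and 120, and *Tnni1* below 1.

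Within each protein family a single gene held nearly all of the level. *Tnnt2* made 99.6% of troponin T TPM in MLPKO and 99.7% in cRADΔ/Δ-MLPKO, and *Tnni3* made 99.98% of troponin I in both. *Tpm1* made 97.6% ± 0.66 (SD, n = 5) of tropomyosin in MLPKO and 96.9% ± 0.31 in cRADΔ/Δ-MLPKO. The fast skeletal troponins, which belong to limb muscle, were close to absent: *Tnnt3* had 5 to 45 raw counts per mouse, *Tnni2* 10 to 32, and *Tnnc2* 0 in 9 mice and 2 in the other. *Tnni2*, the one of these that could be tested, had a log2 fold change of −0.02 (SE 0.36, edgeR adjusted p = 0.984).

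Of the 9 genes, 8 passed the filter on low counts, and the genotype comparison called 2 of these 8, *Tnnt2* and *Tnnt1*, both lower in cRADΔ/Δ-MLPKO. Both encode troponin T. A call is an adjusted p under 0.05 in edgeR's quasi-likelihood test over all 13451 genes tested, of which 1.8% were called lower and 0.944% higher, 2.74% in all. DESeq2 called the same 2 members and no other, and it called 9.65% of all genes. The p-values set the genotype difference against the spread between these mice. In bulk tissue fewer cells of a type and less RNA per cell cannot be told apart.

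*Tnnt2*, cardiac troponin T, had 6386, 7193, 6252, 6572 and 7971 CPM in the 5 MLPKO mice. It had 4905, 5075, 3895, 4845 and 4506 CPM in the 5 cRADΔ/Δ-MLPKO mice. Every MLPKO mouse stood above every cRADΔ/Δ-MLPKO mouse, a separation that 6.62% of all genes tested showed in one direction or the other. The mean fell from 6875 ± 711 (SD, n = 5) to 4645 ± 468 CPM, 67.6% of the MLPKO mean. The log2 fold change was −0.57 (SE 0.09, 95% interval −0.77 to −0.36, edgeR adjusted p = 0.0184, DESeq2 adjusted p = 1.02e-06). The fold change ran from −0.59 to −0.50 when each mouse in turn was left out. The call held in 9 of these 10 fits and was lost without cRADΔ/Δ-MLPKO mouse 5, at an edgeR adjusted p of 0.059. Over all genes tested, these 10 fits called from 50 to 826 genes.

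*Tnnt1*, slow skeletal troponin T, was a minor transcript beside it, at 0.193% to 0.261% of the *Tnnt2* count in MLPKO. The MLPKO mice had 13.6, 18.8, 12.1, 15.3 and 17.1 CPM, and the cRADΔ/Δ-MLPKO mice had 9.16, 9.01, 5.19, 8.77 and 8.82 CPM. The groups did not overlap, and cRADΔ/Δ-MLPKO mouse 3 was the lowest. The mean fell from 15.4 ± 2.68 (SD, n = 5) to 8.19 ± 1.68 CPM, 53.3% of the MLPKO mean, over 190 to 777 raw counts per mouse. The log2 fold change was −0.91 (SE 0.16, 95% interval −1.26 to −0.55, edgeR adjusted p = 0.0226, DESeq2 adjusted p = 1.97e-05). The call was lost without MLPKO mouse 5 (edgeR adjusted p = 0.0641), without cRADΔ/Δ-MLPKO mouse 4 (0.0515) or without cRADΔ/Δ-MLPKO mouse 5 (0.059), while the fold change stayed between −0.98 and −0.77.

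**Figure D2:**
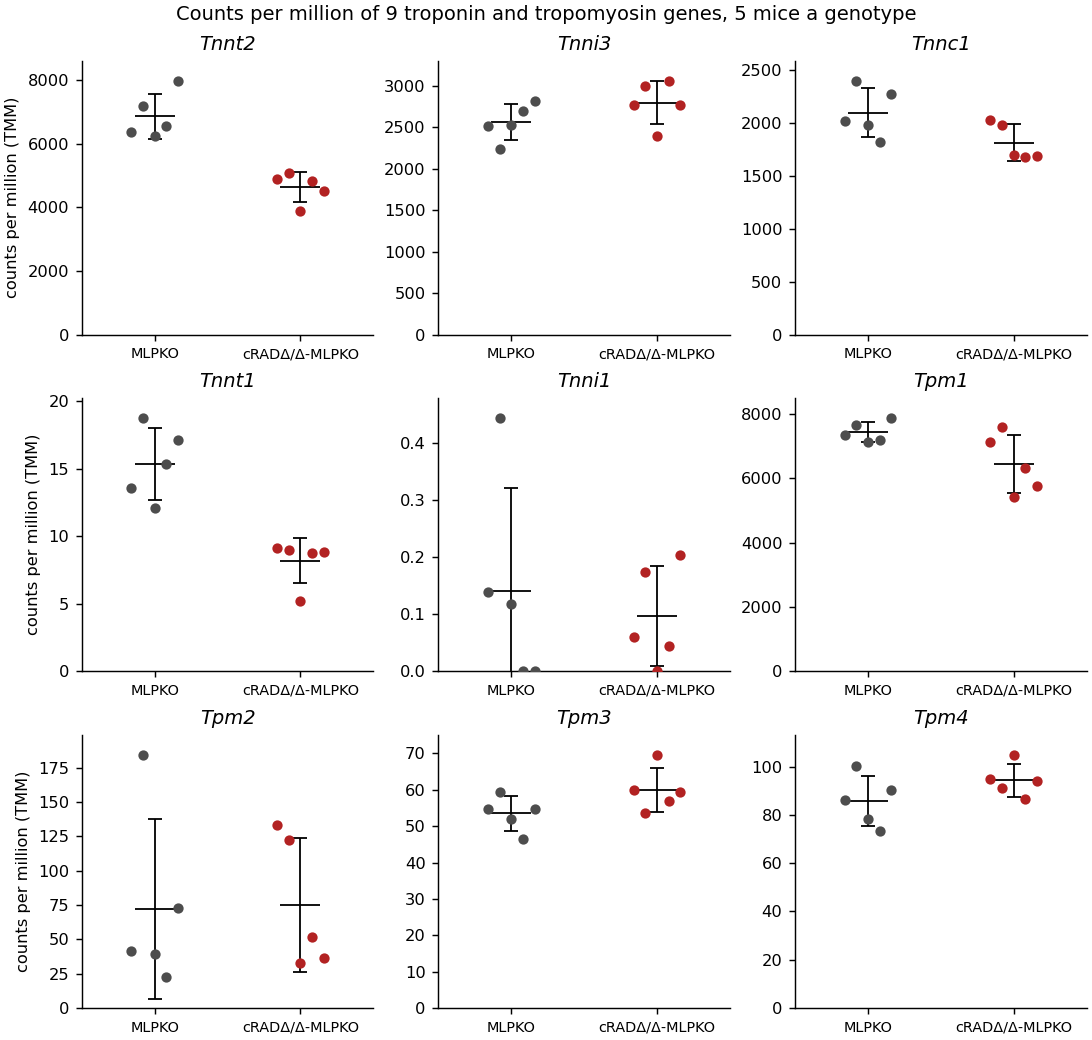
CPM of each of the 9 genes in the 5 MLPKO mice (grey) and the 5 cRADΔ/Δ-MLPKO mice (red), with the mean and SD as bars and each axis starting at 0. *Tnnt2* and *Tnnt1* are the panels in which the groups do not overlap, with *Tnnt2* at 6252 or more in MLPKO and 5075 or less in cRADΔ/Δ-MLPKO.

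The remaining subunits of the troponin complex did not pass the test. *Tnni3*, cardiac troponin I, had 2523, 2242, 2527, 2699 and 2820 CPM in MLPKO and 2769, 2996, 2394, 3056 and 2765 CPM in cRADΔ/Δ-MLPKO, with 4 of the 5 cRADΔ/Δ-MLPKO mice within the range 2765 to 3056. Its log2 fold change was 0.13 (SE 0.08, 95% interval −0.06 to 0.31, edgeR adjusted p = 0.421). *Tnnc1*, troponin C, had 2021, 2393, 1981, 1816 and 2275 CPM in MLPKO and 2029, 1981, 1698, 1676 and 1687 CPM in cRADΔ/Δ-MLPKO. The groups overlapped, and the log2 fold change was −0.21 (SE 0.09, 95% interval −0.41 to −0.01, edgeR adjusted p = 0.214). For *Tnni1*, which failed the filter, the fit without a filter gave a log2 fold change of −0.44 with an SE of 1.05.

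None of the 4 tropomyosin genes passed the test. *Tpm1* had 7339, 7659, 7132, 7202 and 7881 CPM in MLPKO, a narrow range, and 7151, 7594, 5409, 6336 and 5771 CPM in cRADΔ/Δ-MLPKO, where mice 1 and 2 lay within the MLPKO range and the other 3 below it. Its log2 fold change was −0.21 (SE 0.10, 95% interval −0.41 to 0.002, edgeR adjusted p = 0.236). *Tpm3* had 46.5 to 59.4 CPM in MLPKO and 53.5 to 69.6 in cRADΔ/Δ-MLPKO, a log2 fold change of 0.16 (SE 0.08, edgeR adjusted p = 0.278). *Tpm4* had 73.4 to 100.2 CPM in MLPKO and 86.7 to 104.9 in cRADΔ/Δ-MLPKO, a log2 fold change of 0.14 (SE 0.09, edgeR adjusted p = 0.375). Both overlapped between groups, and in both the highest mouse was cRADΔ/Δ-MLPKO mouse 3, which was the lowest of all 10 mice in *Tnnt2*, *Tnnt1* and *Tpm1*.

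*Tpm2* was the most variable of the 8 members tested. The MLPKO mice had 41.3, 184.5, 39.1, 22.3 and 72.5 CPM and the cRADΔ/Δ-MLPKO mice 133.4, 122.6, 32.8, 51.4 and 36.3 CPM, a spread that was wider within each group than between them. The coefficient of variation was 91.0% in MLPKO and 64.8% in cRADΔ/Δ-MLPKO, against 4.27% and 14.2% for *Tpm1*. The log2 fold change was 0.07 (SE 0.57, 95% interval −1.17 to 1.30, edgeR adjusted p = 0.96), so that the interval reached past 1 log2 unit both ways. Summed smooth muscle markers were also highest in MLPKO mouse 2, at 1641 CPM against 844 to 1052 CPM in the other 4 MLPKO mice, but in cRADΔ/Δ-MLPKO they ran only from 1014 to 1212 CPM. The summed skeletal muscle markers were 173, 205, 122, 37.4 and 187 CPM in the MLPKO mice and 217, 163, 48.7, 131 and 73.8 CPM in the cRADΔ/Δ-MLPKO mice, the same order of mice as *Tpm2* within each group. Nearly all of that sum was *Casq1*, the skeletal calsequestrin, at a mean of 142 CPM in MLPKO and 124 in cRADΔ/Δ-MLPKO. The skeletal muscle genes *Myh1*, *Myh4*, *Myog* and *Tnnc2* had 3 counts or fewer in every mouse. Atrial markers had 1029, 2484, 317, 198 and 1869 CPM in the MLPKO mice, again in the order of *Tpm2*, but their order in cRADΔ/Δ-MLPKO differed. Most of the atrial sum in MLPKO was *Nppa*, a natriuretic peptide gene that stressed ventricle also uses, at a mean of 1102 CPM. The other atrial markers differed in level. Their MLPKO means were 39.2 CPM for *Kcnj3*, 22.5 for *Stard10*, 6.88 for *Dkk3*, 3.80 for *Sbk2* and 3.03 for *Myl4*. *Myl7* had a mean of 1.16 CPM and *Fgf12* 0.47, and *Sln* and *Bmp10* were near 0. The part of other cell types in the *Tpm2* values was not tested.

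Cell type markers moved with genotype and bear on how the members are scaled. Over all genes tested, edgeR called 2.74% and DESeq2 9.65%, either way. Of the 10 cardiomyocyte markers, 0 were called by edgeR and 2 were called lower by DESeq2. Of these markers 9 had a negative log2 fold change, and the median was −0.26 against 0.01 over all genes tested. Their sum in cRADΔ/Δ-MLPKO was 86.7% of that in MLPKO and the groups did not overlap (exact permutation p = 0.00794, two-sided, the smallest that 5 against 5 mice can give). The largest part of this sum was *Myh6*, at a mean of 36498 CPM in MLPKO and 29888 in cRADΔ/Δ-MLPKO. *Atp2a2*, the marker that went the other way, had means of 14318 and 15884 CPM. The 8 endothelial markers summed to 760 to 856 CPM in MLPKO and 895 to 1025 CPM in cRADΔ/Δ-MLPKO, again without overlap, with all 8 log2 fold changes positive and *Tek* called (0.32, SE 0.05, edgeR adjusted p = 0.0196). The macrophage and smooth muscle lists also leaned up in cRADΔ/Δ-MLPKO, with 8 of 8 and 8 of 10 log2 fold changes positive. The 2 smooth muscle genes that went down were *Cnn1* (−2.17, SE 0.70, edgeR adjusted p = 0.103) and *Synpo2* (−0.77, SE 0.34, edgeR adjusted p = 0.213). The calls were *Acta2* (1.24, SE 0.29, edgeR adjusted p = 0.0461) and *Rgs5* (0.44, SE 0.09, adjusted p = 0.0319), both smooth muscle, and among 10 fibroblast markers *Dpt* (0.93, SE 0.12, adjusted p = 0.00665). The fibroblast list did not lean up: 6 of its log2 fold changes were negative and 4 positive, with a median of −0.02. Macrophage markers summed to 118 to 164 and 142 to 249 CPM, fibroblast markers to 2279 to 3087 and 2274 to 3430 CPM, platelet and red cell markers to 282 to 2671 and 392 to 1864 CPM, and atrial markers to 198 to 2484 and 252 to 518 CPM, overlapping in each case. Smooth muscle markers, at 844 to 1641 and 1014 to 1212 CPM, overlapped too.

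A fit scaled to the summed cardiomyocyte markers in place of TMM, added after the data had been seen, gives the members relative to those muscle transcripts. This scaling raised the median log2 fold change of all genes by 0.21 and turned 242 lower and 127 higher calls into 122 lower and 2543 higher, so values are to be read against that shift. *Tnnt2* (log2 fold change −0.36, SE 0.07, edgeR adjusted p = 0.0133) and *Tnnt1* (−0.71, SE 0.14, adjusted p = 0.0135) were still lower. *Tnnc1* and *Tpm1* came to 0.0029 and 0.00021, with SEs of 0.10 and 0.09, so that their difference in CPM was close to the −0.21 of the marker sum. *Tnni3* (0.33, SE 0.07, edgeR adjusted p = 0.0139), *Tpm3* (0.38, SE 0.11, adjusted p = 0.0357) and *Tpm4* (0.36, SE 0.11, adjusted p = 0.039) were called higher on this scale and on no other that was tried. The direction of *Tnnt2* and *Tnnt1* was the same under TMM, relative log expression, upper quartile and marker scaling.

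**Figure D3:**
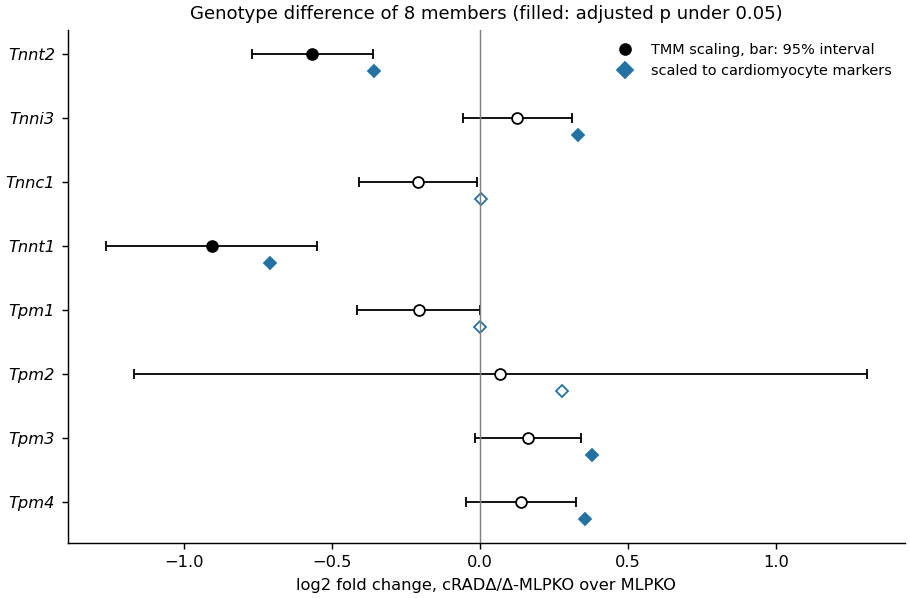
Log2 fold change of the 8 genes tested, cRADΔ/Δ-MLPKO over MLPKO, with TMM scaling (circles, bars for the 95% interval) and with libraries scaled to the summed cardiomyocyte markers (diamonds), filled where the adjusted p is under 0.05. *Tnnt2* and *Tnnt1* are below 0 on both scales, and *Tnnc1* and *Tpm1* move from −0.21 to near 0 with marker scaling.

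Ratios between members of the same mouse do not depend on library scaling, and 8 of them were compared between genotypes with a two-sided exact permutation test adjusted over the 8 ratios. They ask whether the subunits of the complex kept their proportions. The *Tnni3* count was 39.5%, 31.2%, 40.4%, 41.1% and 35.4% of the *Tnnt2* count in the MLPKO mice. It was 56.5%, 59.0%, 61.5%, 63.1% and 61.4% of it in the cRADΔ/Δ-MLPKO mice, above every MLPKO mouse. The log2 ratio rose by 0.69, from −1.42 ± 0.17 (SD, n = 5) to −0.73 ± 0.06 (exact permutation p = 0.00794, adjusted p = 0.0212). With group medians in place of means the difference was 0.64 and the call was lost (exact permutation, adjusted p = 0.0762), as it was for the 5 other ratios called below. Many assignments tie on a median of 5 mice. The test on medians therefore cannot reach a p as small as with means, and it cannot decide whether these calls hold. The *Tnni3* to *Tnnt2* difference was the largest of those called and had the smallest spread within cRADΔ/Δ-MLPKO.

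Troponin C and *Tpm1* also rose relative to cardiac troponin T. The *Tnnc1* to *Tnnt2* log2 ratio went from −1.71 ± 0.11 (SD, n = 5) to −1.36 ± 0.13, a difference of 0.36, and the *Tpm1* to *Tnnt2* log2 ratio from 0.12 ± 0.09 to 0.47 ± 0.10, a difference of 0.35. For both the groups did not overlap, with an exact permutation p of 0.00794 and an adjusted p of 0.0212. *Tnnt1* fell relative to *Tnnt2* as well, by 0.35 on the log2 scale (exact permutation p = 0.0159, adjusted p = 0.0254), reaching 0.133% to 0.196% of the *Tnnt2* count in cRADΔ/Δ-MLPKO, with 1 mouse of each group in the overlap. That last call was lost when any of 7 of the 10 mice was left out (adjusted p = 0.0508 in the exact permutation test each time). Fewer mice allow fewer assignments, but the call held without MLPKO mouse 3 or cRADΔ/Δ-MLPKO mouse 2 or 5 (exact permutation, adjusted p = 0.0317 to 0.0423). The *Tnni3*, *Tnnc1* and *Tpm1* ratios to *Tnnt2* kept their calls whichever mouse was left out. All ratios to *Tnnt2*, that of *Tnnt1* among them, share its values as denominator and are not separate evidence.

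Within the tropomyosins, *Tpm4* to *Tpm1* rose by 0.36 on the log2 scale (exact permutation p = 0.0159, adjusted p = 0.0254) and *Tpm3* to *Tpm1* by 0.38 (exact permutation p = 0.0317, adjusted p = 0.0423). The *Tpm4* count was 1.02% to 1.31% of the *Tpm1* count in MLPKO and 1.20% to 1.94% in cRADΔ/Δ-MLPKO, and that of *Tpm3* was 0.645% to 0.776% and 0.705% to 1.29%. The groups overlapped in both, and cRADΔ/Δ-MLPKO mouse 3 was highest in both. The endothelial and macrophage marker sums were highest in this same mouse, at 1025 and 249 CPM, and its cardiomyocyte marker sum was the lowest of the 10; their part in these ratios was not tested. Calls were lost when any of 8 of the 10 mice was left out for *Tpm4* and any of 9 for *Tpm3*. Without mouse 3 the differences were 0.26 and 0.26, with an adjusted p of 0.0508 for *Tpm4* and 0.0847 for *Tpm3* in the exact permutation test. *Tpm2* to *Tpm1* differed by 0.43 (exact permutation p = 0.516, adjusted p = 0.59), and *Tnni1* to *Tnni3*, which rests on 14 counts or fewer of *Tnni1*, by 0.03 (exact permutation p = 0.984).

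**Figure D4:**
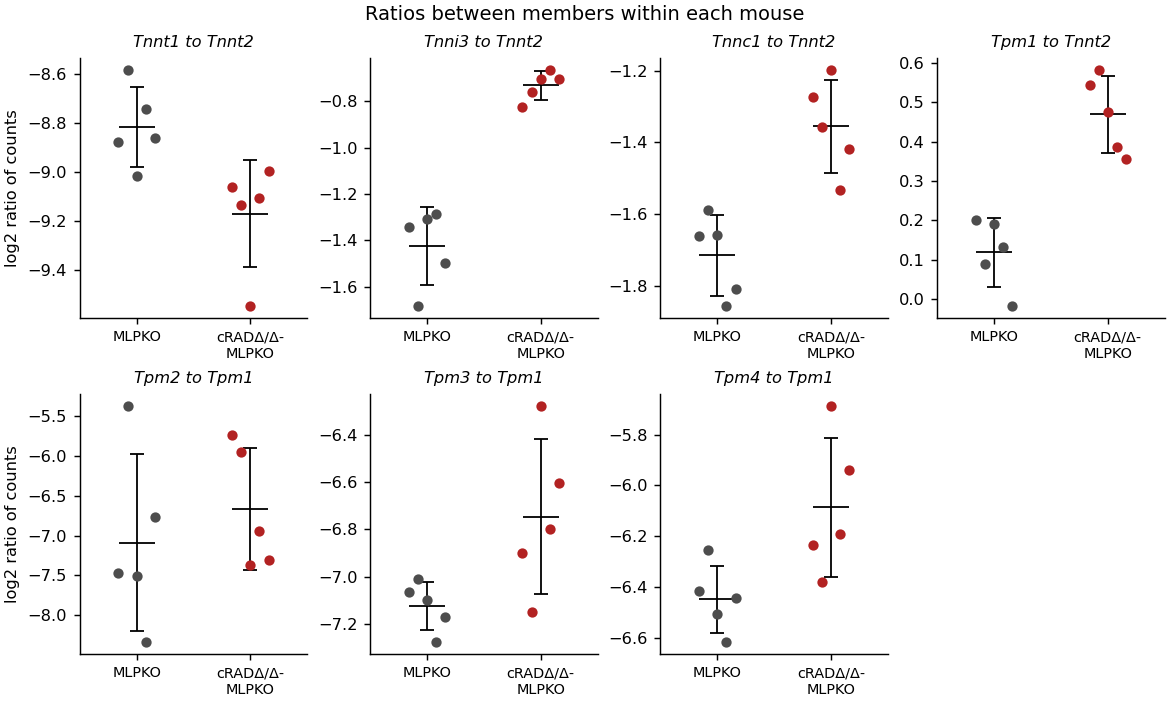
Log2 ratio of raw counts between pairs of members in each of the 5 MLPKO (grey) and 5 cRADΔ/Δ-MLPKO (red) mice, with mean and SD, for 7 of the 8 ratios. The *Tnni3*, *Tnnc1* and *Tpm1* ratios to *Tnnt2* do not overlap between genotypes, whereas *Tpm2* to *Tpm1* runs from −8.33 to −5.38 in MLPKO.

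The genes that build and regulate the filament around the members are given as counts of calls and medians. Over all genes tested, edgeR called 2.74% and DESeq2 9.65%, and edgeR called 50 to 826 genes when 1 mouse was left out. Of 22 thin filament partners, all tested, 2 fell, 0 rose, and the median log2 fold change was −0.19 against 0.01 over all genes. *Acta1*, skeletal α-actin, which the heart also makes, went from 5300 to 19102 CPM in MLPKO to 2809 to 8016 in cRADΔ/Δ-MLPKO, a log2 fold change of −1.52 (SE 0.36, edgeR adjusted p = 0.0492). *Nrap*, a protein of myofibril assembly and the intercalated disc, went from 1463 to 3152 CPM to 1016 to 1431 CPM, a log2 fold change of −0.81 (SE 0.18, edgeR adjusted p = 0.0377). *Actc1*, the main actin of the heart, had a log2 fold change of −0.30 (SE 0.23, edgeR adjusted p = 0.489). The *Acta1* groups overlapped and those of *Nrap* did not. DESeq2 called 6 of the 22 lower and 0 higher. The edgeR count was 0 without MLPKO mouse 1 or 5 or without cRADΔ/Δ-MLPKO mouse 2, 3, 4 or 5, and 1 without MLPKO mouse 2 or 3.

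Of 14 thick filament genes, 12 were tested and 1 was called, *Myh7*, the slow β-myosin heavy chain. It had 770 to 1342 CPM in MLPKO and 340 to 499 CPM in cRADΔ/Δ-MLPKO, without overlap, and fell by 1.23 on the log2 scale (SE 0.17, edgeR adjusted p = 0.0104). *Myh7* and *Tnnt1* are both slow skeletal muscle genes and both fell. *Tnnc1* and *Tpm3*, which slow muscle also uses, did not pass the test, and *Tnni1* could not be tested. The median of the list was −0.26, and DESeq2 called 3 lower and 0 higher.

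Of 25 kinases and phosphatases that act on troponin or tropomyosin or belong to their pathways, 24 were tested, 1 was called lower and 0 were called higher. Over all genes tested edgeR called 2.74% and DESeq2 9.65%. The median of the list was −0.09, and DESeq2 called 6 lower and 2 higher. The edgeR count was 0 without MLPKO mouse 1 or 5 or without cRADΔ/Δ-MLPKO mouse 2, 3, 4 or 5, and 3 without MLPKO mouse 4. Of 14 splicing factors, which set the exons that *Tnnt2* and *Tpm1* transcripts carry, 12 were tested and 0 were called, with a median of −0.05, 1 DESeq2 call (*Celf2*) and 1 edgeR call without MLPKO mouse 4. Of 25 transcription regulators of muscle genes, 0 were called by edgeR, the median was 0.02, and DESeq2 called 4 lower and 2 higher. Without MLPKO mouse 3 edgeR called 2 of them, and without MLPKO mouse 2 or 4 it called 1. The DESeq2 calls were *Gata4* (edgeR log2 fold change −0.37), *Tbx20* (−0.36), *Tead1* (−0.33) and *Mef2c* (−0.28) lower, and *Tbx5* (0.49) and *Vgll2* (1.69) higher. Their edgeR adjusted p ran from 0.0556 for *Gata4* to 0.101 for *Vgll2*. Of the other genes for TEAD factors, *Tead2* had 0.17, *Tead3* 0.04 and *Tead4* 0.24, none of them called by either tool.

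**Figure D5:**
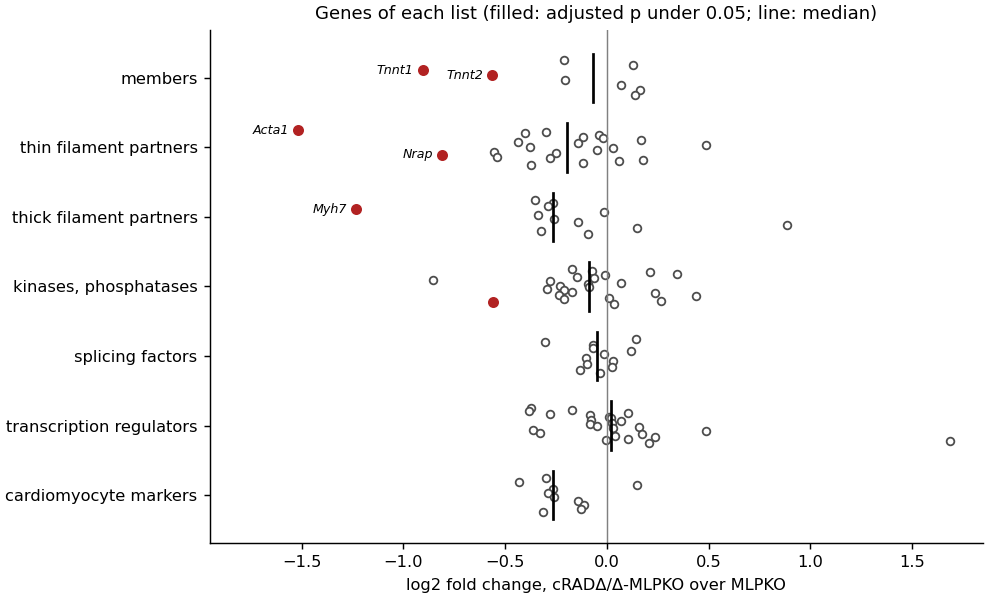
Log2 fold change of every gene tested in 7 lists, cRADΔ/Δ-MLPKO over MLPKO, with the median of each list as a line, genes of adjusted p under 0.05 filled, and those described in the text named. The members have a median of −0.07 with *Tnnt2* and *Tnnt1* apart from the other 6, and the thick filament and cardiomyocyte lists, which share genes, both have a median of −0.26.

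Genes beside the members on the chromosome showed no common direction. *Ppp1r12c*, a myosin phosphatase subunit gene 2340 bases from *Tnnt1* on its far side from *Tnni3*, rose by 0.22 on the log2 scale (SE 0.05, edgeR adjusted p = 0.0461), so that *Tnnt1* fell between a neighbour that rose and one that was not called. *Lad1*, between *Tnni1* and *Tnnt2*, had 14 to 100 counts and a log2 fold change of −0.37 (SE 0.40, edgeR adjusted p = 0.648). *Nisch*, which surrounds *Tnnc1*, had −0.20 (SE 0.06, edgeR adjusted p = 0.0946), close to the −0.21 of *Tnnc1* itself, and *Dnaaf3*, which overlaps *Tnni3*, had 0.24 (SE 0.26, edgeR adjusted p = 0.649) at 57 to 248 counts. Of the other neighbours that could be tested, *Phlda3*, *Syt5*, *Stab1*, *Sema3g*, *Lactb*, *Tln2*, *Car9*, *Tln1* and *Rab8a*, 0 were called.

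The genes whose pattern over the 10 mice was most like that of the called members were found by the root-mean-square difference of mean-centred log2 CPM. For *Tnnt2* they were *Gga2* (0.09), *Cdh2* (0.10), *Dsp* (0.10), *Chm* (0.11) and *Pde8a* (0.11). *Cdh2* encodes N-cadherin and *Dsp* desmoplakin, both proteins of the intercalated disc. For *Tnnt1* they were *Cacna2d1* (0.16), a subunit of the L-type calcium channel, *Cenpa* (0.18), *Ccdc30* (0.20), *Chrm2* (0.21), the muscarinic receptor of the heart, and *Hspb6* (0.22). *Tnnt2* was 8th nearest to *Tnnt1*, at 0.25, but *Tnnt1* was only 1070th nearest to *Tnnt2*. Among the members *Tpm1* (281st, 0.19) and *Tnnc1* (430th, 0.21) were nearer to *Tnnt2* than *Tnnt1* was, and *Tnni3* (6217th, 0.36) was farther. *Tpm3* and *Tpm4* were near each other, at 0.06, *Tpm4* being 3rd nearest to *Tpm3* and *Tpm3* 4th nearest to *Tpm4*. All of these share the libraries and their scaling. Centring over all 10 mice also kept the genotype difference, so genes of like fold change stand near by construction. The 5 genes nearest to *Tnnt2* had log2 fold changes of −0.49 (*Chm*) to −0.41 (*Cdh2*). Those nearest to *Tnnt1* had −0.90 (*Hspb6*) to −0.59 (*Chrm2*). Nearness here is thus not separate evidence of a link to troponin T.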

How the data were processed

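RNA from the ventricle of 10 mice was sequenced from poly(A)-selected libraries. The authors deposited raw counts per gene, 1 table for the series on GRCm39; the submitters' processing notes name FastQC, STAR and featureCounts, without versions, and strand and read-pair settings are not given in the sources used here. Between 73.7% and 80.3% of the counts from 1 to 20 were even, as counting both ends of a fragment would give; no adjustment was made for it.

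A gene was tested if 6 or more mice had over 10 counts and its name was not a predicted-gene name (Gm with a number, or Rik). Counts were scaled by TMM and tested with edgeR 4.0.16 (R 4.3.3; quasi-likelihood, Benjamini-Hochberg over all 13451 genes), with genotype as the only term. DESeq2 1.42.0 and limma 3.58.1 were alternatives, as were other normalizations and filters, a block by mouse number and leaving out each mouse. The fits were tested on simulated data. Ratios used raw counts plus 0.5. TPM used lengths of Ensembl-canonical transcripts of GENCODE M39. Mouse numbers name different animals; same-numbered mice had correlated deviations of −0.0423 to 0.152, so they were not treated as pairs.

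The members and lists were chosen with earlier results of these data known. Named were all 9 members, the called genes of each list (that of the kinase and phosphatase list is not reported here), fast troponins, neighbours and the 5 genes nearest to each called member; genes named beyond this rule were chosen after their values were seen, among them *Actc1*, *Celf2*, *Casq1*, *Nppa*, the called markers and the transcription regulators. All 9 members matched the RefSeq promoter table by symbol. Counting error is small at these depths except for *Tnni1*, *Tnnt3*, *Tnni2* and *Tnnc2*.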

Additional observations from a re-analysis of the deposited data

Results flagged for a closer look

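The value of 1 mouse stood apart from its group in 2 of 32 groups of 5 values examined, 1 group for each of the 8 tested members and 8 ratios in each genotype; chance alone would mark about 1 in 20 of them. *Tnnt1* in cRADΔ/Δ-MLPKO mouse 3 was 5.19 CPM against 8.77 to 9.16 CPM in the other 4 mice, a gap of 0.904 of the range of the group. The log2 ratio of *Tnnt1* to *Tnnt2* in the same mouse was −9.55 against −9.14 to −8.995 in the others, a gap of 0.746 of the range. Both rest on the same *Tnnt1* value, 190 raw counts. Without this mouse the *Tnnt1* call remained, and the ratio differed by −0.26 between genotypes with an adjusted p of 0.0508 in the exact permutation test.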

How the results depend on the processing

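The 2 calls were the same with DESeq2, limma-voom, RLE and upper quartile scaling, no filter, edgeR's filterByExpr and predicted genes kept. A block by mouse number also gave 2, with *Tnnt2* at −0.57 (edgeR adjusted p = 0.0284) and *Tnnt1* at −0.92 (0.016), and changed no other call among members. Leaving out 1 mouse gave 0 to 2 calls (0 without cRADΔ/Δ-MLPKO mouse 5, 1 without mouse 4 or MLPKO mouse 5), and scaling to cardiomyocyte markers gave 5, with *Tnnc1* at 0.0029 and *Tpm1* at 0.00021 in place of −0.21 each. Over all genes tested, leaving out 1 mouse gave 50 to 826 calls. *Tpm2* ran from −0.24 to 0.78 and changed sign without MLPKO mouse 1 (−0.08), 3 (−0.08) or 4 (−0.16) or cRADΔ/Δ-MLPKO mouse 1 (−0.24) or 2 (−0.17).

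With group medians in place of means all 6 called ratios lost their call: *Tnnt1* to *Tnnt2* −0.25, *Tnni3* to *Tnnt2* 0.64, *Tnnc1* to *Tnnt2* 0.30, *Tpm1* to *Tnnt2* 0.34, *Tpm3* to *Tpm1* 0.30 and *Tpm4* to *Tpm1* 0.25 (exact permutation, adjusted p = 0.0762 to 0.159). Many assignments tie on a median, so this test cannot reach a p as small as with means and cannot decide whether the calls hold. With 1 mouse left out, fewer assignments exist and adjusted p reached 0.0508 to 0.0847 for *Tnnt1* to *Tnnt2* (−0.40 to −0.26), *Tpm3* to *Tpm1* (0.26 to 0.48) and *Tpm4* to *Tpm1* (0.26 to 0.43). In the same fits *Tnni3*, *Tnnc1* and *Tpm1* to *Tnnt2* kept their calls, with an adjusted p of 0.0423 or less in the exact permutation test. *Tnni1* to *Tnni3* changed sign with medians (−0.91), as a percent of both genes (−0.0026) and with 1 mouse left out (−0.65 to 0.78). DESeq2 called more list genes: 6 against 2 thin filament, 3 against 1 thick filament, 8 against 1 kinase or phosphatase, 1 against 0 splicing and 6 against 0 regulator genes, and 1298 against 369 overall. With 1 mouse left out the thin filament list gave 0 to 3 calls, the kinases 0 to 3, the splicing factors 0 to 1 and the regulators 0 to 2. The same fits gave 50 to 826 calls over all genes tested. Ranks by level moved for 6 members with exon-union lengths. Depth limits *Tnni1*, whose change cannot be resolved at 14 counts or fewer.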
